A study of Equus caballus with 6 samples.

Results

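The genes described here are the facilitative glucose transporters SLC2A1 and SLC2A3 and the glycolytic enzymes HK1, HK2, GPI, GAPDH, PGK1, PGAM1, ENO1 and LDHA, followed in horse hoof with and without laminitis. All probe sets whose single gene symbol in the platform annotation is 1 of these 10 symbols were taken, and each probe set was kept apart. There were 14 such probe sets for 9 of the 10 genes, among 24128 on the array, and HK2 had none. Of the 14, 3 are GAPDH control probe sets. Of the 11 others, 8 were bright enough to test, 1 for each gene except SLC2A3, and each of the 8 lay above its array's median on all 6 arrays.

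The samples were lamellar hoof tissue from the right foot, the interleaved epidermis and dermis by which the hoof wall holds the coffin bone. There were 3 samples of diseased lamellae (laminitis replicates 1, 3 and 4) and 3 of normal lamellae (normal replicates 2, 3 and 4), with 1 array each. The breed, age and sex of the horses and how laminitis arose are not given in the sources used here, nor whether the 6 samples are separate horses. The p-values therefore reflect the spread among 6 arrays only, part or all of which may be technical. Horse RNA was read with bovine GeneChips, so a probe set that mismatches the horse sequence can read low, and levels of different genes are not compared.

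Glucose enters most cells through SLC2A proteins, of which SLC2A1 (GLUT1) is the widespread basal carrier and SLC2A3 (GLUT3) a high-affinity carrier known from neurons and leukocytes. Hexokinase traps the sugar as glucose 6-phosphate, GPI turns it to fructose 6-phosphate, and after the aldolase split GAPDH, PGK1, PGAM1 and ENO1 carry the triose to phosphoenolpyruvate, while LDHA reduces pyruvate to lactate and returns the NAD+ that GAPDH needs. Several of these genes, SLC2A1 and LDHA among them, are known targets of the hypoxia-inducible factor HIF-1. Lamellar explants in culture are known to need glucose to keep epidermis and dermis attached.

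Signals are given as deposited, on a linear scale, and laminitis replicate 1 stood apart from the other arrays. The bacterial transcripts dap, lys, phe and thr, which GeneChip protocols add to RNA before labelling, read 13.0, 3.535, 3.91 and 4.98 times brighter at the 3′ than at the 5′ end on this array, and from 1.20 to 2.12 times on the other 5. It was the brightest of the 6 arrays for 6 of the 8 tested members, namely SLC2A1, GPI, GAPDH, PGK1, PGAM1 and ENO1, against 18% of all tested probe sets. Where each member's probes lie along its transcript is not given in the files, and the part of this array's 3′ reading in the results was not tested. The difference of each member probe set is therefore also given without it. Array medians ran from 86.7 to 96.6, and the number of arrays limits the precision.

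SLC2A1 had the largest difference among the 8 tested probe sets, and HK1 and GAPDH were the others whose laminitis arrays all lay above the normal arrays. SLC2A1 was 4.38-fold higher in laminitis, GAPDH 1.87-fold and HK1 1.74-fold, as ratios of geometric means. PGK1 was 1.41-fold higher with overlapping groups. GPI and PGAM1 differed by less than 4% on the deposited scale, with a direction that turned after quantile or cyclic loess normalization. The ENO1 means were equal to within 1%, with a sign that turned likewise, and LDHA was 0.862 times its normal level. None of the 8 passed the test in limma with Benjamini-Hochberg adjustment over 12519 tested probe sets at a threshold of 0.05, and 0% of all tested probe sets passed as higher or as lower.

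At an unadjusted limma p under 0.05, 3 of the 8 were higher in laminitis and 0 lower, against 4.82% and 4.97% of all tested probe sets. In the same 3 the laminitis arrays all lay above the normal arrays, against 7.89% of all tested probe sets, and 0 had the reverse, against 8.92%. On the deposited scale 7 of the 8 log2 differences were above 0, against 43.7% of all, and this count was 4 after quantile or cyclic loess normalization and 5 without laminitis replicate 1 or without normal replicate 4. A log2 difference of at least 1 was seen in 1 of the 8, SLC2A1, against 2.36% of all. The median log2 difference was 0.28 over the 8 members and -0.056 over all tested probe sets.

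**Figure D1:**
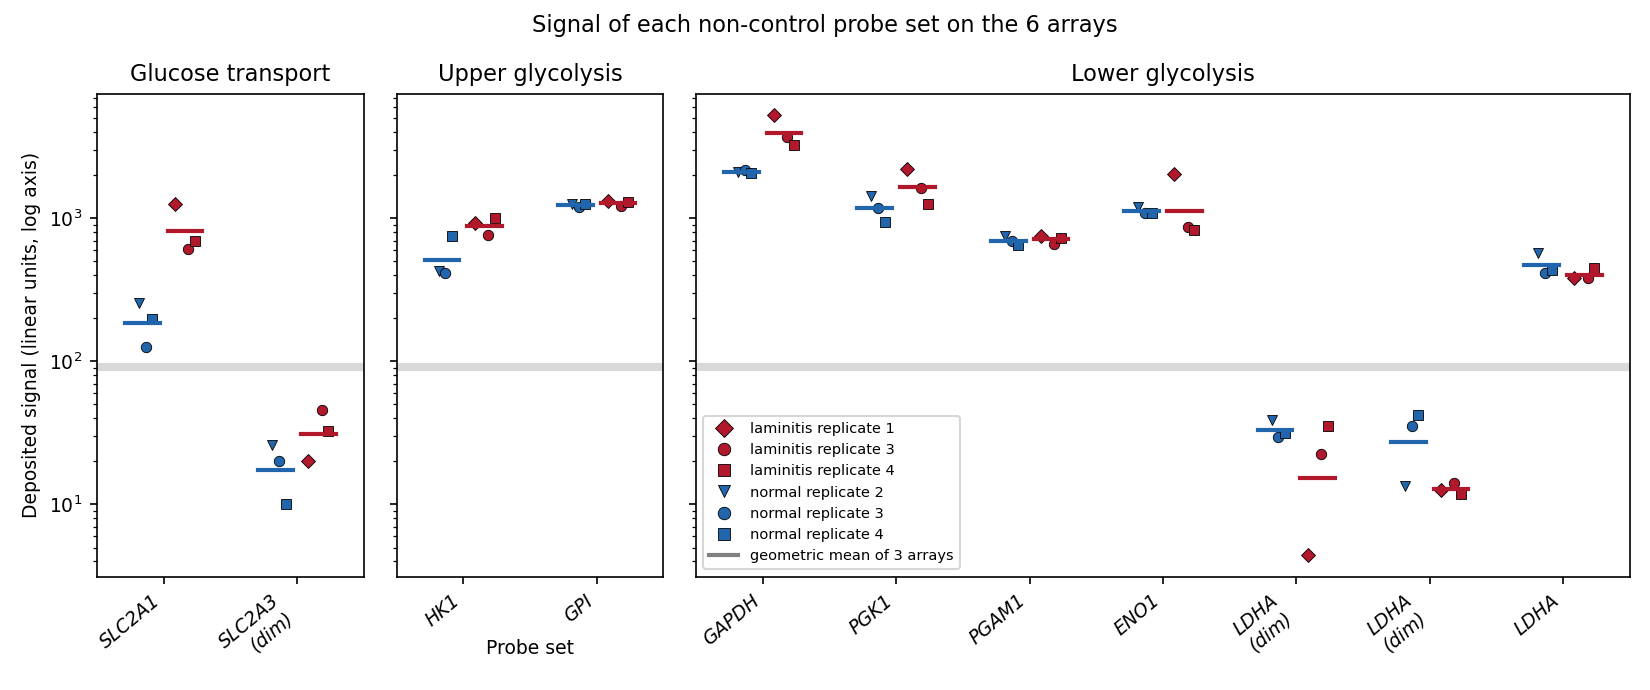
Deposited linear signal (log axis) of the 11 non-control probe sets on each array, by step of the pathway; points are arrays, bars are geometric means of 3 arrays and the grey band is the range of the array medians. SLC2A1, HK1 and GAPDH have all laminitis points above all normal points, and SLC2A3 and 2 LDHA probe sets (dim) lie below the band on every array.

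Differences on this scale moved with brightness. Among tested probe sets with a geometric mean signal from 300 to 1000, where SLC2A1, HK1, PGAM1 and LDHA lie, the median log2 difference was 0.0068, and in 10.2% the laminitis arrays all lay above the normal arrays. From 1000 to 3000, where GPI, GAPDH, PGK1 and ENO1 lie, the median was 0.22 with quartiles of -0.026 and 0.51, and 26.3% had laminitis above. Above 3000 these were 0.36 and 55.6%. After quantile normalization the medians of these 3 ranges lay between -0.052 and -0.015. The differences of SLC2A1, HK1 and GAPDH were above the upper quartile of their range, that of PGK1 lay just under it, and those of GPI and ENO1 lay below the median of theirs. Of the control transcripts that GeneChip protocols add at hybridisation, bioC, bioD and cre were also brighter in laminitis. The bioC control read 1555 to 1829 against 1040 to 1305 in normal tissue, and bioD 8250 to 9133 against 5225 to 7167. For cre the ranges were 21248 to 23803 against 16483 to 19782, while bioB overlapped at 541 to 653 and 347 to 562. The part of brightness in single results was not tested beyond these values.

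**Figure D2:**
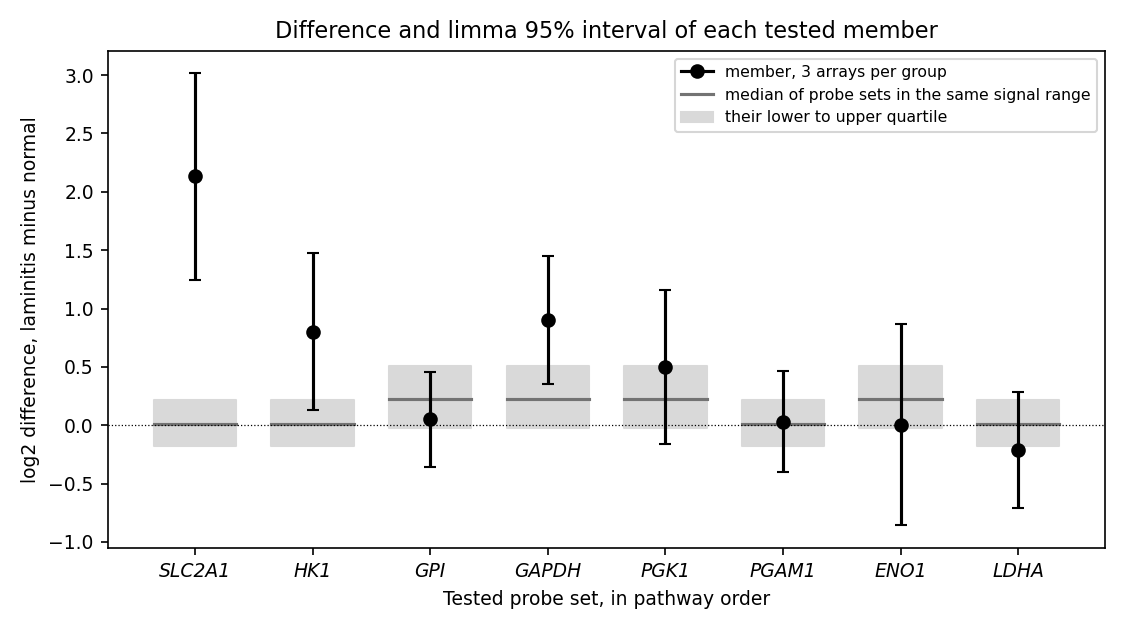
Log2 difference (laminitis minus normal) of the 8 tested probe sets with limma's 95% interval, beside the median and quartiles of all tested probe sets in the same signal range. The intervals of SLC2A1, HK1 and GAPDH lie above 0; those of the other 5 include 0, and the signs of GPI, PGAM1 and ENO1 turn after quantile normalization.

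Glucose transport was represented by SLC2A1. Its signal was 1269, 613 and 693 on laminitis replicates 1, 3 and 4 and 257, 126 and 197 on normal replicates 2, 3 and 4. The lowest laminitis array was 2.39 times the highest normal array, while the arrays of a group spanned 2.07-fold in laminitis and 2.03-fold in normal tissue. The log2 difference was 2.13 ± 0.37 (limma SE, n = 3 per group), with a 95% interval from 1.25 to 3.02, and the limma adjusted p was 0.202. By p it ranked 45 among the 12519 probe sets. Without laminitis replicate 1 the difference was 1.81, or 3.51-fold, and leaving out any other array gave 1.85 to 2.37. After quantile normalization it was 2.08, and with 64 added to every signal 1.81. Over the 19 alternative settings its adjusted p ran from 0.0714, where probe sets had to lie above the median on all 6 arrays, to 0.541, without normal replicate 3; without laminitis replicate 1 it was 0.329.

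SLC2A3 was dim. Its probe set read 20.2, 45.8 and 32.5 in laminitis and 25.9, 20.2 and 10.2 in normal tissue, below its array's median on all 6 arrays, and the groups overlapped. It was left out of the test by the brightness filter. The log2 difference of 0.83 (1.15 without laminitis replicate 1) became 0.22 with 64 added to every signal, so its size depends on the background. Fitted without the filter, limma gave a 95% interval from -0.29 to 1.95 and an adjusted p of 0.711.

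Upper glycolysis held 2 tested enzymes. HK1, the widespread hexokinase that binds mitochondria, read 926, 760 and 1003 in laminitis and 428, 414 and 752 in normal tissue. The groups were kept apart by a small margin, since the lowest laminitis array was 1.01 times normal replicate 4, the highest normal array. The log2 difference was 0.80 ± 0.29 (limma SE, n = 3 per group), with a 95% interval from 0.13 to 1.48 and a limma adjusted p of 0.475. It was 1.08 without normal replicate 4, 0.65 without normal replicate 3 and 0.77 without laminitis replicate 1.

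GPI, which makes fructose 6-phosphate, was the steadiest probe set of the group. It read 1320, 1230 and 1310 in laminitis and 1264, 1201 and 1259 in normal tissue, so the 6 arrays interleaved. The log2 difference was 0.051 ± 0.17 (limma SE, n = 3 per group), with an interval from -0.36 to 0.46, which excludes a 1.5-fold difference in either direction on this scale. It was 0.033 without laminitis replicate 1, -0.21 after quantile normalization and -0.15 after cyclic loess.

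GAPDH, which oxidises glyceraldehyde 3-phosphate and is widely used as a reference transcript, opens lower glycolysis and had 4 probe sets that differed in their account. The gene's own probe set read 5247, 3682 and 3241 in laminitis and 2114, 2193 and 2073 in normal tissue. The normal arrays lay within 1.06-fold of each other, and all 3 laminitis arrays lay above them. The log2 difference was 0.90 ± 0.23 (limma SE, n = 3 per group), with an interval from 0.35 to 1.45 and a limma adjusted p of 0.345. It was 0.70 without laminitis replicate 1, and 0.51 after quantile normalization, a change of over 1.5 times.

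The 3 GAPDH control probe sets, placed by their names at the 5′ end, the middle and the 3′ end of the transcript, were left out of the main test. The middle one read 6210, 5304 and 5965 in laminitis and 2801, 4670 and 3687 in normal tissue, again with no overlap. The 5′ one read 611, 596 and 543 in laminitis and 436, 534 and 544 in normal tissue, and overlapped. The 3′ one read 5928, 2418 and 2576 in laminitis and 2998, 2945 and 3696 in normal tissue, so laminitis replicate 1 was the highest array while the other 2 laminitis arrays were the lowest. With control probe sets kept in the fit, a setting added once values were known, the log2 differences were 0.68 ± 0.24 for the middle, 0.21 ± 0.19 for the 5′ and 0.060 ± 0.37 for the 3′ probe set (limma SE, n = 3 per group), with limma adjusted p of 0.472, 0.739 and 0.97. Without laminitis replicate 1 the middle probe set gave 0.63 and the 5′ one 0.18, while the 3′ one gave -0.36, the opposite sign to the gene's own probe set. The GAPDH result thus differs between probe sets, and the 3′ probe set does not show the difference.

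**Figure D3:**
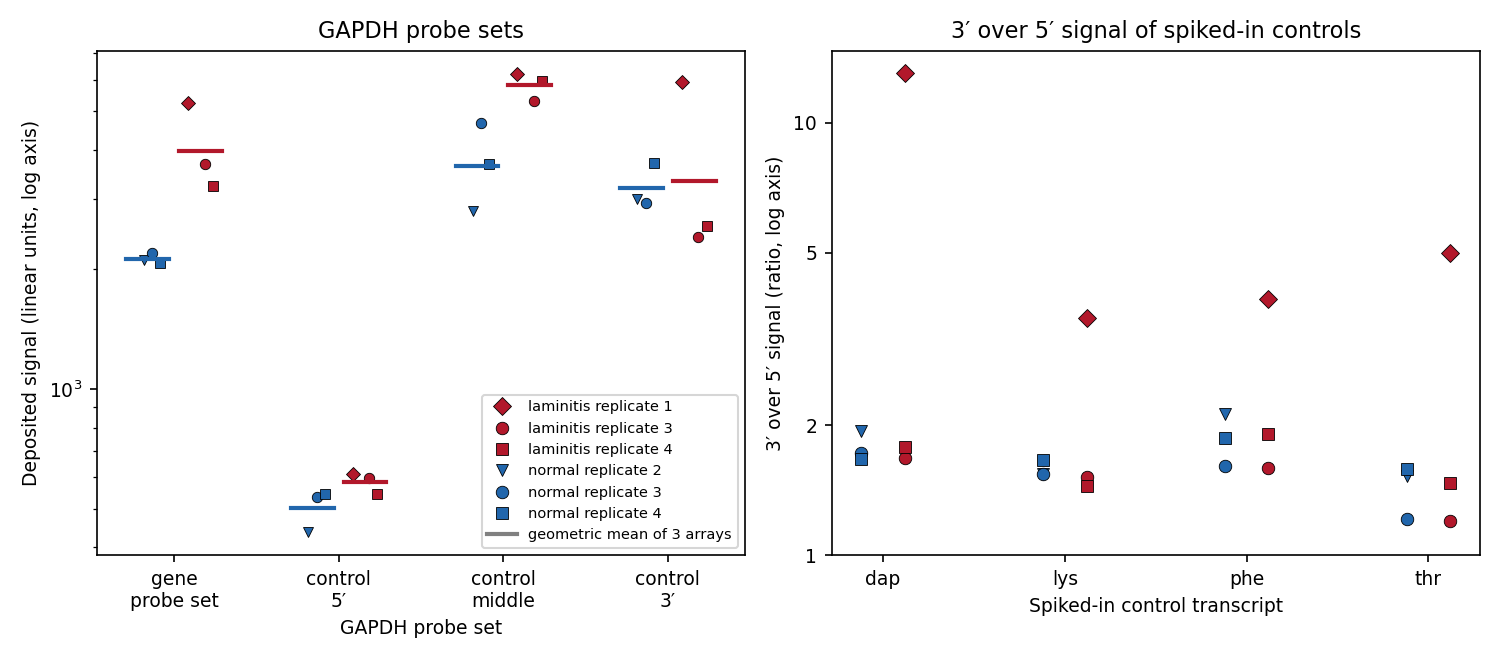
Left, deposited signal (log axis) of the 4 GAPDH probe sets on each array with the geometric mean of 3 arrays; right, ratio of 3′ to 5′ signal (log axis) of the 4 bacterial control transcripts. The gene probe set and the middle control keep the groups apart, the other 2 do not, and laminitis replicate 1 has the highest ratio for every control transcript.

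PGK1, which yields ATP in the step after GAPDH, read 2219, 1630 and 1263 in laminitis and 1445, 1187 and 944 in normal tissue. Laminitis replicate 4 lay below normal replicate 2, so the groups overlapped. The log2 difference was 0.50 ± 0.28 (limma SE, n = 3 per group), with an interval from -0.16 to 1.16 and a limma adjusted p of 0.601. It was 0.29 without laminitis replicate 1 and 0.22 after quantile normalization.

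PGAM1, the mutase that moves the phosphate of 3-phosphoglycerate, read 756, 658 and 734 in laminitis and 749, 699 and 653 in normal tissue. The arrays interleaved, and the log2 difference was 0.032 ± 0.18 (limma SE, n = 3 per group) with an interval from -0.40 to 0.46. It was -0.0092 without laminitis replicate 1 and -0.11 after quantile normalization.

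ENO1, the enolase that makes phosphoenolpyruvate, showed the widest spread within laminitis among the tested members. It read 2036, 866 and 823 in laminitis and 1207, 1088 and 1098 in normal tissue. Laminitis replicate 1 lay above all normal arrays, and laminitis replicates 3 and 4 lay below them. The difference of 0.0034 ± 0.36 (limma SE, n = 3 per group, interval -0.86 to 0.86) is thus a mean of opposite deviations, and it was -0.42 without laminitis replicate 1.

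LDHA, unlike SLC2A1, HK1 and GAPDH, had no higher mean in laminitis. Its bright probe set read 381, 385 and 453 in laminitis and 571, 417 and 437 in normal tissue, and the groups overlapped. The log2 difference was -0.21 ± 0.21 (limma SE, n = 3 per group), with an interval from -0.71 to 0.28. For this probe set and on this scale the interval excludes a rise of 1.5-fold. It was -0.17 without laminitis replicate 1 and -0.075 without normal replicate 2, the array with the highest value. Both other LDHA probe sets were dim, below the array median on all 6 arrays. The first read 4.46, 22.5 and 35.6 in laminitis and 39.1, 29.5 and 31.4 in normal tissue. The second read 12.7, 14.1 and 11.8 in laminitis and 13.4, 35.6 and 42.5 in normal tissue. Their log2 differences of -1.11 and -1.09 became -0.21 and -0.29 with 64 added to every signal, and were -0.23 and -1.08 without laminitis replicate 1.

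**Figure D4:**
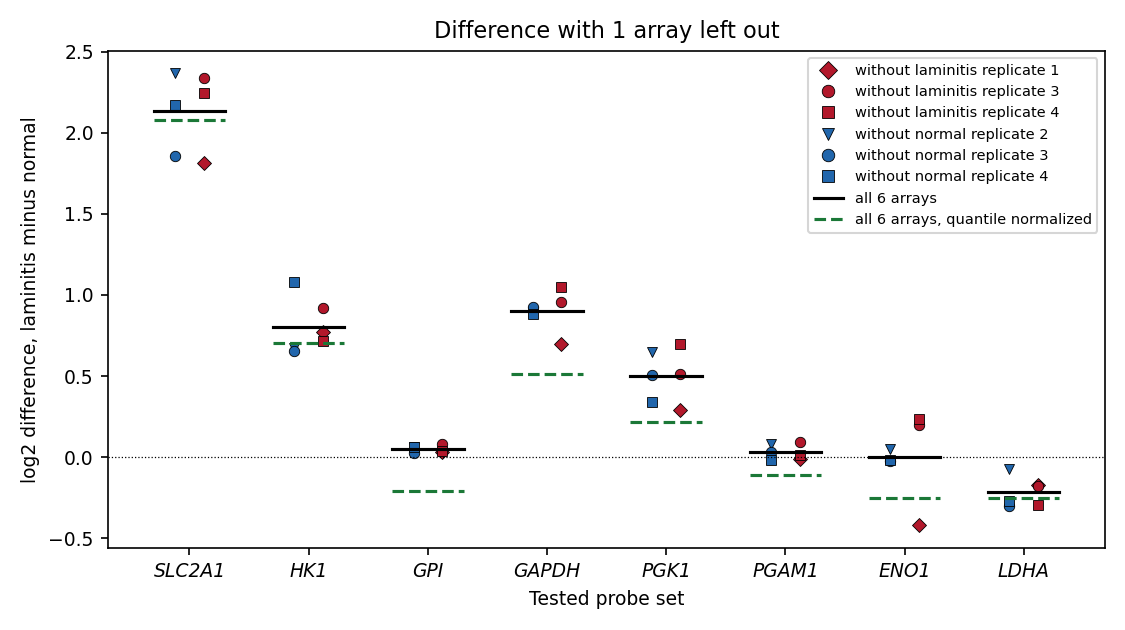
Log2 difference (laminitis minus normal) of the 8 tested probe sets with all 6 arrays, with each array left out in turn, and after quantile normalization. SLC2A1 stays between 1.81 and 2.37 with any array left out, ENO1 is at -0.42 without laminitis replicate 1, and GPI, PGAM1 and ENO1 are below 0 after quantile normalization.

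The median log2 difference was 2.13 for transport (SLC2A1 alone), 0.43 for the 2 upper enzymes and 0.032 for the 5 lower enzymes. Adding the dim probe sets moved the transport median to 1.48 and left the lower one at 0.0034 over 7 probe sets. The lower enzymes ranged from -0.21 for LDHA to 0.90 for GAPDH, and their median moved with single arrays. It was -0.0092 without laminitis replicate 1, 0.20 without laminitis replicate 3, 0.23 without laminitis replicate 4, 0.082 without normal replicate 2 and -0.017 without normal replicate 4. After quantile normalization it was -0.11, and that of the upper enzymes was 0.25. Without laminitis replicate 1 the upper median was 0.40.

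The other genes of the pathway were counted from lists drawn up by function. None of their tested probe sets passed in limma over all probe sets, in either direction. Of 12 other glucose carriers 7 had a probe set and 4 were tested, 2 with a positive and 2 with a negative difference. SLC2A8, an intracellular carrier, had a log2 difference of -0.40 ± 0.26 and SLC2A6, a carrier of macrophage lysosomes, 0.21 ± 0.19. The insulin-responsive carrier SLC2A4 lay below the median on every array.

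Among other upper enzymes 11 probe sets of 9 genes were tested, 4 with a positive and 7 with a negative difference (median -0.19). PFKFB3, which makes the activator of phosphofructokinase, read 323, 553 and 393 in laminitis and 349, 284 and 283 in normal tissue (0.44 ± 0.25). The muscle phosphofructokinase PFKM had -0.38 ± 0.22 by the probe set of smallest p, whose laminitis arrays all lay below the normal ones, and -0.26 and -0.086 by 2 others, which overlapped. Among other lower enzymes 7 probe sets of 6 genes were tested, 4 with a positive and 3 with a negative difference (median 0.0095). Of these 7, 3 had all laminitis arrays above all normal arrays, against 7.89% of all tested probe sets, namely LDHB, LDHD and PKM. The LDHD probe set counted here lay above the array median on the 3 laminitis arrays and normal replicate 2 only. It thus entered the test through the group where it was high. LDHB lies in the brightest range, above 3000, where 55.6% had laminitis above.

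LDHB, the lactate dehydrogenase subunit of oxidative tissues, read 3579, 4524 and 3756 in laminitis and 3230, 2101 and 2569 in normal tissue. Its log2 difference was 0.60 ± 0.23 (limma SE, n = 3 per group) with a limma adjusted p of 0.494. In its brightness range the median difference was 0.36 and the upper quartile 0.58. PKM, the pyruvate kinase of most tissues, read 338, 269 and 378 in laminitis and 262, 231 and 191 in normal tissue (0.52 ± 0.23). For LDHD, the mitochondrial D-lactate dehydrogenase, 1 probe set gave 0.59 ± 0.20 and the other -0.24 ± 0.29.

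Of the genes for lactate and pyruvate fate, 12 probe sets of 9 genes were tested, 3 with a positive and 9 with a negative difference (median -0.036). PDP1, the phosphatase that activates pyruvate dehydrogenase, had -0.55 ± 0.20 and PDK3, a kinase that inhibits it, -0.41 ± 0.33, or -0.15 without laminitis replicate 1. Of 6 pentose phosphate probe sets 2 were positive and 4 negative (median -0.094), with RPE, an epimerase of the pathway's sugar phosphates, at 0.33 ± 0.21 and PGLS, its lactonase, at -0.22 ± 0.18. Of 11 for gluconeogenesis and glycogen 3 were positive and 8 negative (median -0.20). PYGL, glycogen phosphorylase, had 1.38 ± 0.57 by its tested probe set, which lay above the array median on the 3 laminitis arrays only. It thus entered the test through the group where it was high, and a dim PYGL probe set gave -0.87. G6PC3, a glucose 6-phosphatase, had -0.66 ± 0.32.

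Among 13 tested probe sets of regulators 7 were positive and 6 negative (median 0.024). HIF1A, the oxygen-regulated subunit of HIF-1, which is controlled mostly at the protein level, read 10442, 7273 and 5909 in laminitis and 3684, 3332 and 4347 in normal tissue. It was 2.03-fold higher (log2 1.02 ± 0.26, limma SE, n = 3 per group, adjusted p 0.345), in the brightest range, where the median difference was 0.36. AKT2, a kinase of insulin signalling, read 58.4, 62.2 and 83.7 in laminitis and 135, 108 and 127 in normal tissue. Its log2 difference was -0.87 ± 0.22 (limma adjusted p 0.345). This probe set lay above the array median on the 3 normal arrays only, so it entered the test through the group where it was high. The 2 dim AKT2 probe sets gave -0.13 and -0.33. Without laminitis replicate 1 the log2 differences were 0.80 for HIF1A, -0.77 for AKT2, 0.67 for LDHB, 0.50 for PKM, 1.18 for PYGL and 0.62 for PFKFB3.

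Markers of other cells were read beside these results, since in bulk tissue fewer cells of a type and less RNA per cell cannot be told apart. All 5 basal keratinocyte markers with a probe set were tested, among them KRT14 and KRT5, as were all 8 fibroblast and 6 of 7 skeletal muscle markers. By probe set this was 6 of 8, 12 of 14 and 9 of 17, against 12519 of 24016 non-control probe sets. Passing the filter does not by itself show that a cell type is present. The summed signal of the 9 probe sets of 6 neutrophil markers ran from 1628 to 13526 in laminitis and from 592 to 1038 in normal tissue. S100A8, which stressed keratinocytes also make, read 9810, 7256 and 779 in laminitis, or 72.5%, 69% and 47.9% of the sum. S100A9 had the list's largest difference (4.52 ± 0.87) by a probe set above the array median on the 3 laminitis arrays and normal replicate 2 only. This probe set entered the test through the group where it was high, and an untested S100A9 probe set gave 2.81 with overlapping groups. The integrin ITGAM lay below the median on every array. The neutrophil enzymes ELANE (-1.05 ± 0.34) and MPO (-0.44 ± 0.21) were lower in laminitis on every array by their tested probe sets. The ELANE probe set lay above the array median on the 3 normal arrays only, so it entered the test through the group where it was high. Without laminitis replicate 1 the differences were 3.69 for S100A8 and 4.03 for the tested S100A9 probe set. The part of these cells in the SLC2A1 and GAPDH results was not tested.

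For 5 macrophage markers the summed signal ran from 758 to 1028 in laminitis and from 703 to 823 in normal tissue, with the largest difference for CYBB, a subunit of the phagocyte oxidase (2.20 ± 0.41). The other 3 tested markers were split, with MSR1 at 0.59, CD68 at -0.26 and CD14 at -0.16. The tested CYBB probe set lay above the array median on the 3 laminitis arrays and normal replicate 4 only. That of MSR1 did so on the 3 laminitis arrays and normal replicate 2 only. Both thus entered the test through the group where they were high. Dim probe sets gave 0.62 for CYBB, with overlapping groups, and -0.86 and -0.73 for MSR1. For 5 erythroid markers the sums were 232 to 276 and 198 to 268, with EPB42 at -0.46 ± 0.58, and HBB lay below the median on every array. Basal keratinocyte sums were 1526 to 2208 and 1015 to 1900, with ITGB4 at 1.29 ± 0.57. Of 6 tested basal probe sets 4 were positive and 2 negative, with COL17A1 at -0.32 and KRT15 at -0.13 and 0.065. Suprabasal sums were 1877 to 3043 and 2186 to 2849, with DSG1 at -0.35 ± 0.46, and 1 of 3 tested probe sets was positive. Fibroblast sums were 9859 to 31816 and 10060 to 33381, with DCN at -1.61 ± 0.42. The 12 tested fibroblast probe sets were split, 4 positive and 8 negative, and PDGFRA (0.35) had all laminitis arrays above the normal ones.

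Endothelial sums were 736 to 992 in laminitis and 763 to 1068 in normal tissue, with CDH5 at -0.14 ± 0.70. Here 1 of 4 tested probe sets was positive. Smooth muscle sums were 2709 to 4140 and 3817 to 4637, with CNN1 at -0.87 ± 0.61. Among 4 tested smooth muscle probe sets 1 was positive, that of ACTA2 at 0.13, and 3 were negative. Lymphocyte sums were 1212 to 1533 and 1478 to 1506, with CD2 at -0.98 ± 0.38. Among 8 tested lymphocyte probe sets 2 were positive and 6 negative. CD4 gave 0.30 by 1 probe set, with all laminitis arrays above the normal ones, and -0.67 by another. Skeletal muscle sums were 2111 to 2420 and 2386 to 2641, with MYH7 at -1.49 ± 0.56 by 1 probe set and at 0.086 and -0.081 by the other 2. The first lay above the array median on the 3 normal arrays and laminitis replicate 4 only, so it entered the test through the group where it was high. Among 9 tested skeletal muscle probe sets 5 were positive and 4 negative. Adipocyte sums were 259 to 344 and 334 to 486, with FABP4, the only tested marker, at -0.88 ± 0.26. Its tested probe set lay above the array median on the 3 normal arrays and laminitis replicate 1 only. It thus entered the test through the group where it was high. Untested probe sets gave 0.034 for FABP4, 0.27 for LPL, 0.19 for ADIPOQ, -0.045 for CIDEC and -0.017 and -0.19 for LEP. Schwann cell sums were 822 to 1051 and 925 to 1104, with S100B at -0.31 ± 0.25, and 1 of 4 tested probe sets was positive. The sums of the groups overlapped for each of these lists, and neutrophil markers were the cell list whose sums did not. The higher neutrophil sums in laminitis rested on S100 genes, while ELANE and MPO went the other way by their tested probe sets.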

How the data were processed

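Per the labels' protocols, total RNA was labelled by oligo(dT) priming with 1 round of amplification and hybridised to Affymetrix bovine arrays. The deposited file holds a linear intensity for each probe set. As computed here, every array had nearly the same trimmed mean, 150.02 or 150.03 after 2% was removed at each end. The submitters' processing notes name GCRMA, which returns log2 values, so how the values were made is unsettled. Detection calls were not used here. Gene symbols are bovine, from GEO's platform annotation.

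Samples were grouped by title. The 112 control probe sets were left out, and log2 values with no offset were tested where a probe set lay above its array's median on at least 3 of 6 arrays. Laminitis was compared with normal by lmFit and eBayes (limma 3.58.1, R 4.3.3), two-sided, adjusted over 12519 probe sets. The fit was tested on simulated data. Medians and counts over members carry no test.

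Members and lists were chosen with earlier results of these data known. All member probe sets are named, of each pathway list the 2 genes of smallest p, and of each cell list the tested gene with the largest difference. PKM, KRT14, KRT5, SLC2A4, ITGAM, HBB, S100A8, ELANE, MPO, MSR1, CD68, CD14 and ALDOA were named after their values were seen. So were PDGFRA, COL17A1, KRT15, CD4, ACTA2, LPL, ADIPOQ, CIDEC and LEP. No 2 arrays shared a value. Alternatives were 3 filters, 3 normalizations, offsets of 16 and 64, 3 variance models, the replicate number as a block, each array left out, and control probe sets kept.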

Additional observations from a re-analysis of the deposited data

Results flagged for a closer look

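On laminitis replicate 1 the ratio of 3′ to 5′ signal of the bacterial control transcripts was more than 2 times the highest normal array for 3 of 4 transcripts. It was 13.0 for dap against at most 1.93 in normal tissue, 3.535 for lys against 1.66 and 4.98 for thr against 1.58. The dap signal on this array was 378 at the 5′ end, against 2237 to 3219 on the other 5 arrays, and 4913 at the 3′ end, against 4325 to 5731. Control probe sets entered the comparison of groups only in the setting that kept them in the fit.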

How the results depend on the processing

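In all 19 alternative settings 0 of the member probe sets passed in limma as higher or lower, and SLC2A1, HK1, GAPDH and PGK1 kept a positive and LDHA a negative log2 difference. Over all probe sets, against 0 called with the main settings (604 higher and 622 lower at an unadjusted p under 0.05), 6 were called higher where probe sets had to lie above the median on all 6 arrays, 4 higher with an intensity trend and robust variance, and 1 lower with the 25th percentile filter. With 1 array left out 0 to 2 were called higher, the 2 without laminitis replicate 4. The ordinary linear model called 0. The signs of 3 members turned. GPI was -0.21 after quantile and -0.15 after cyclic loess normalization, PGAM1 -0.11, -0.079 and, with array weights, -0.0065, and ENO1 -0.25, -0.18 and -0.081. With 1 array left out PGAM1 ran from -0.018 to 0.092 and ENO1 from -0.42 to 0.23. The number of members with a positive difference was 4 of 8 after both of these normalizations, and with no filter the transport median was 1.48. The cause was not tested for the turned signs. Replicate numbers 3 and 4 occur in both groups, and same-numbered arrays deviated with correlations of -0.017 and -0.031. With only 2 such pairs, these values cannot show whether same-numbered samples share more than a number. With the replicate block, which rests on these 2 pairs, limma called 0 probe sets, SLC2A1 was 2.05 and ENO1 -0.37. The lack of detection calls limits what the dim SLC2A3 and LDHA probe sets show.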

Other observations

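ALDOA, the aldolase that splits the hexose between GPI and GAPDH, resembled ENO1 in its single high array. It read 1684, 863 and 811 on laminitis replicates 1, 3 and 4 and 874, 852 and 835 in normal tissue, with a log2 difference of 0.31 ± 0.31 (limma SE, n = 3 per group), or -0.029 without laminitis replicate 1.

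Ratios between members within an array do not depend on a single scaling factor per array, though they do on brightness. The log2 ratio of GAPDH to GPI, centred over the 6 arrays, was 0.79, 0.38 and 0.11 on laminitis replicates 1, 3 and 4 and -0.46, -0.33 and -0.48 on normal replicates 2, 3 and 4. That of HK1 to SLC2A1 was -1.25, -0.48 and -0.26 in laminitis and -0.060, 0.92 and 1.14 in normal tissue. Both were chosen after the values were seen and were not tested.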
